A study of Mus musculus with 6 samples.

Results

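The Reg genes encode small secreted C-type lectins of the gut and pancreas. ATAC-seq, which reads open chromatin by where Tn5 transposase can cut nuclear DNA, was examined here over all 7 members analysed, Reg1, Reg2, Reg3a, Reg3b, Reg3d, Reg3g and Reg4, of 21911 protein-coding genes. A peak was assigned to a member when its summit lay in the gene body or within 10 kb on either side (GRCm38, GENCODE M21), and a peak near several members was counted once. By this rule 39 of the 302463 peaks in 6 peak lists belonged to the family. Merged where they overlapped, they made up 12 of 71286 regions, 8 on chromosome 6 and 4 on chromosome 3.

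Intestinal crypts were profiled in 3 samples labelled Arid3a WT and 3 labelled Arid3a KO (WT and cKO hereafter). The cKO animals carried VillinCre-ERT2+/- and Arid3a fl/fl. The Villin promoter drives this tamoxifen-dependent Cre in intestinal epithelium, so that stromal and immune cells of a crypt preparation keep Arid3a. Both genotypes received tamoxifen on 3 consecutive days and were culled 1 month after the first injection. The age of the animals and the alleles of the WT controls are not given in the sources used here, and each list comes from 1 library. Because the samples are bulk preparations, fewer cells of a type and less open chromatin per cell cannot be told apart.

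Reg3b and Reg3g proteins bind and kill bacteria at the mucosal surface, and both genes are known to be raised by microbial sensing through MyD88 and by interleukin-22 acting through STAT3. Reg1 and Reg2 are best known from the pancreas, where acinar cells secrete them. Reg4 is expressed in secretory cells of the gut and marks enteroendocrine cells and the deep secretory cells of the colonic crypt. The 6 members other than Reg4 stand in 1 array on chromosome 6.

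The 6 lists held 40492, 50704 and 55091 peaks in WT 1 to 3 and 58297, 46415 and 51464 in cKO 1 to 3. Read totals are not in the lists. The fragments piled up at each summit were recovered from the fold and p columns, and the library-wide background was 1.75 to 2.29 fragments. At that background the weakest called peak held 8 or 9 fragments, and where the local background is raised a call needs more, so that a missing call is not closed chromatin. A promoter counted as called in a list with a summit between 1000 bp before and 100 bp after an annotated start, so that a peak whose summit lies just outside is no promoter call. Promoters of 7 leukocyte markers, Ptprc and Cd3e among them, had a call in 0 lists. Of 7 epithelial markers 3 were called in all 6 lists and the others in some. Of 7 mesenchymal and endothelial markers Col1a1 and Pdgfra were called in all 6, Vim and Kdr, whose regions were present in all lists, in 1 list of each genotype and Col3a1, Pecam1 and Cdh5 in none. Of 6 crypt markers 3 were called in every list, and of 4 acinar pancreas markers Cela1 was called in every list while Prss2, Cpa1 and Ptf1a were called in none. For comparison, 44.5% of all protein-coding genes had a promoter call in all 6 lists and 38.3% in none. The Arid3a promoter was called in all 6 lists, which checks nothing, since the deleted part of the gene is not given in the lists.

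The array on chromosome 6 spans 98.2 kb from Reg3b to Reg3g. Its accessible sites can be shown by sequence: the strongest site of the family, which lies 8.48 kb upstream of Reg3b, then a stretch ending at the exon that holds the third annotated Reg1 start and the stretch before the Reg3g start, which were the 2 Reg promoters called most often, and the stretch before the Reg2 start, where no list had a peak. Capitals mark letters that match any of 6 motifs searched on both strands: TGACTCA for AP-1, CAAAGTCCA with its variant CAAAGTTCA for HNF4, ATCAAA with its variant ATTAAA for ARID3, TTTATNG for CDX, AGATAA with its variant TGATAA for GATA, and TTCNNNGAA for STAT. All are from the GRCm38.p6 reference, printed 5′ to 3′ on the strand named, and hold no annotated untranslated exon. A match is a description of letters and not a measured site.
Reg3b distal site, chr6:78362076-78362276, plus strand, 100 bases on each side of its summit: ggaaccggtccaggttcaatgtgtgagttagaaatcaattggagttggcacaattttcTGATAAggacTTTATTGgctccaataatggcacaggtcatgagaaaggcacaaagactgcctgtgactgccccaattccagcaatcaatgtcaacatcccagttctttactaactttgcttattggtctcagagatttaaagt
Reg1, chr6:78425680-78425929, plus strand: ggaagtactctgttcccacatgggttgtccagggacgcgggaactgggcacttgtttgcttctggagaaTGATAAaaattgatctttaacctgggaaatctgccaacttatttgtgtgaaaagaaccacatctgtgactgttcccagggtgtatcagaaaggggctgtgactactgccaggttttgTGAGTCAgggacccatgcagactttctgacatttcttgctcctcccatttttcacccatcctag
Reg3g, chr6:78468873-78469122, minus strand: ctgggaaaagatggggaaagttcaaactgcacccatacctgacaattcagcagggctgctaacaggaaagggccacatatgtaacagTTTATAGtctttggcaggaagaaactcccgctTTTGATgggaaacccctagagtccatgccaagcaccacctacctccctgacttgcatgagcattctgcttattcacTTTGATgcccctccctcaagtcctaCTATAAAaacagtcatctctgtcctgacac
Reg2, chr6:78404908-78405157, plus strand: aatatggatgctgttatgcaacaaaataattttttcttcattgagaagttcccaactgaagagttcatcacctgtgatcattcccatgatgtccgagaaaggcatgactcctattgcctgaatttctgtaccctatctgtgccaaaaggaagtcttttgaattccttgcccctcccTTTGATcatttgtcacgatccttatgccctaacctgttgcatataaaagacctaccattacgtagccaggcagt

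The family as a whole had few peaks in either genotype, and the numbers overlapped. WT 1, 2 and 3 held 3, 6 and 7 peaks over the 7 loci, and cKO 1, 2 and 3 held 9, 5 and 9. The means were 5.33 ± 2.08 in WT and 7.67 ± 2.31 in cKO (SD, n = 3 each), a difference of 2.33 peaks, about the size of the SD within either genotype. cKO 2 held fewer Reg peaks than WT 2 and WT 3. The 2 shortest lists, WT 1 and cKO 2, had the fewest Reg peaks, but cKO 3 held more than WT 3 with a shorter list. Per 10000 peaks of the list the Reg peaks numbered 0.741, 1.18 and 1.27 in WT and 1.54, 1.08 and 1.75 in cKO. At the mean list length this was a difference of 1.97 peaks, a scale added after seeing the data. When every list was shortened to the length of the shortest, the counts were 3, 3 and 5 in WT and 6, 2 and 6 in cKO, a difference of 1.00 peak.

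Most of the difference lay over Reg4 and not in the array. Reg4 had 0, 2 and 2 peaks in the WT lists and 4, 2 and 4 in the cKO lists (1.33 ± 1.15 against 3.33 ± 1.15, SD, n = 3 each, exact two-sided permutation p = 0.3, where 0.1 is the smallest p that 3 against 3 can give). The 6 members of the array together had 3, 4 and 5 peaks in WT and 5, 3 and 5 in cKO. Reg3a and Reg3d each had 0, 1 and 1 peaks against 2, 1 and 2, and share them (exact permutation p = 0.3). In the counts per member a shared peak counts for each member. The peaks at the Reg3b promoter (cKO 1 and cKO 3) and just downstream of Reg3d (WT 2) are thus also counted for Reg3b. Reg3b had 1, 2 and 1 against 2, 1 and 2, Reg1 had 1, 1 and 2 against 1 in each cKO list, and Reg3g had 1 in each WT list against 1, 0 and 1 (exact permutation p = 1 for each). For 0 of the 7 members did every cKO list hold more peaks than every WT list, a pattern seen at 0.666% of the 21911 protein-coding loci, and for 0 did every cKO list hold fewer, seen at 0.297%. Without cKO 2, Reg4, Reg3a and Reg3d showed the first pattern, among 941 loci in all. The mean over the 6 lists was 2.33 peaks for Reg4, where protein-coding loci with a window within 10% of its length had a median of 2. It was 1.5 for Reg3b, 1.17 for each of Reg1, Reg3a and Reg3d and 0.833 for Reg3g, where loci of like length had a median of 1, and 0 for Reg2, where it was 2. Over all protein-coding loci, longer genes included, the median was 2.

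**Figure D1:**
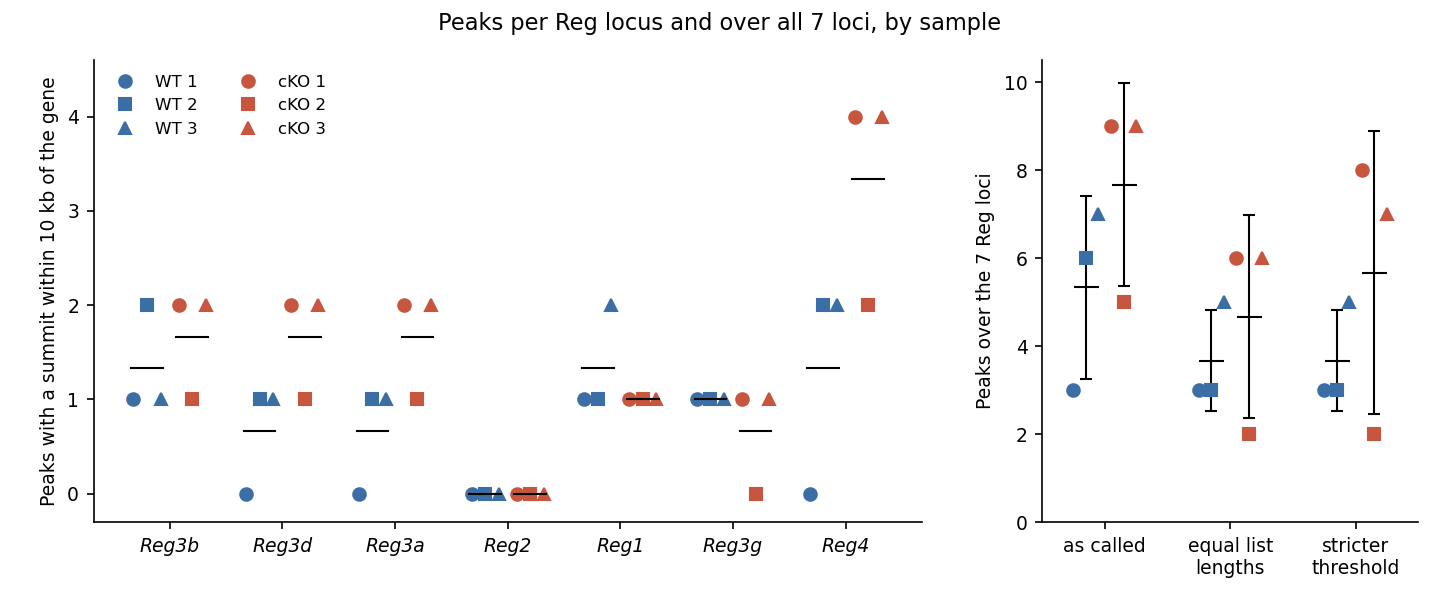
Peaks by sample. The left panel shows, for each member in chromosome order with Reg4 last, the number of peaks with a summit within 10 kb of the gene (points, samples by shape; lines, group means), and the right panel shows peaks over all 7 loci as called, with lists of equal length and at −log10 q of at least 5 (points; mean and SD, n = 3). Reg2 has 0 peaks in every sample, and the 2 genotypes overlap for every gene and for every total.

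Of the 12 regions, 6 were called in both genotypes, 3 in cKO lists only and 3 in WT lists only. Each of the 3 WT-only regions was called in a single list, as were 20.9% of all regions. The share of all regions with calls in 1 genotype only is not given here, so this split is a description. More cKO than WT lists called 6 of the 12 regions (background over all regions 28.5%), and more WT than cKO lists called 4 (background 15.7%). All 4 regions over Reg4 were of the first kind. In 2 of the 12 every list had a call, a share of 16.7% where 45.9% of all regions were called in all 6 lists. The family's peaks were thin: the 39 held 9 to 93 fragments (median 20), and 7 of them lay within 3 fragments of the lowest called pileup. At −log10 q of at least 5 there remained 28 of the 39 (71.8%), where 82.9% of all peaks passed.

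The region 8.48 kb upstream of Reg3b was the most accessible of the family. It covers 1231 bp of intergenic sequence (chr6:78361505-78362735), and the nearest protein-coding gene outside the family, Ctnna2, lies 382 kb away. It was called in all 6 lists, with 39, 58 and 51 fragments at the summit in WT and 93, 23 and 70 in cKO. Divided by the background of the library, these were 18.5, 31.8 and 25.3 against 40.7, 13.2 and 32.1. cKO 1 had the highest and cKO 2 the lowest value, so that the WT values lay between those of the cKO samples.

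Within each list the peak's rank by the fold column was high, at percentile 85.8, 94.2 and 81.2 in WT and 88.7, 64.1 and 82.9 in cKO. The mean was 87.1 ± 6.60 in WT and 78.6 ± 12.8 in cKO (SD, n = 3 each), and limma gave a difference of −8.51 percentile points (cKO minus WT, SE 6.24, adjusted p = 0.771 over 32748 regions, exact permutation p = 0.5). On the scale of fragments over library background the difference had the other sign, at 3.43 (28.7 ± 14.1 in cKO against 25.2 ± 6.66 in WT, exact permutation p = 0.7). The fold column divides by a local background, which was 3.14 and 2.99 times the library background in cKO 1 and cKO 3, 1.30 times in cKO 2 and 1.51 to 1.95 times in WT. The summit sequence of the region holds 1 GATA and 1 CDX match and none for the other 4 motifs. Over the whole merged region, 11.6% of the 50-base stretches recur elsewhere in the genome.

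Reg1 was the member whose promoter was called in every list. Its merged region (chr6:78425462-78426203) spans the third annotated start of the gene, 78425983. The peaks held 16, 10 and 19 fragments in WT and 37, 9 and 26 in cKO. Those of WT 2 and cKO 1 ended before that start. The summits lay between 78425632 (WT 2) and 78426054 (WT 1), so the fragments were counted at different positions. cKO 1 and cKO 3 were higher than every WT sample, and cKO 2 was lower than every WT sample, 1 fragment above the lowest pileup that list called at its library background. The percentiles were 42.2, 16.1 and 39.98 in WT and 69.8, 7.36 and 53.5 in cKO. The difference of 10.8 percentile points (43.6 ± 32.4 against 32.8 ± 14.5, SD, n = 3 each) was smaller than its limma SE of 14.98 (adjusted p = 0.854, exact permutation p = 0.6). Left out in turn, cKO 1 turned the difference to −2.32 and cKO 2 raised it to 28.9 percentile points. The printed stretch holds the AP-1 match of the family's promoters, as TGAGTCA on the plus strand, and 1 GATA match. AP-1 is the dimer of Fos and Jun proteins that binds many inducible enhancers.

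The limma comparison called 0 of 32748 regions present in all lists at an adjusted p under 0.05 (background 0%), with 1876 (5.73%) at an unadjusted p under 0.05, so it set no region apart and neither of these 2 Reg regions was among the 1876. Percentiles of all 3 cKO lists lay above those of all 3 WT lists in 4.66% of the regions and below in 7.04%. Neither Reg region had such a gap.

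Reg3g, whose product kills Gram-positive bacteria, had a promoter peak in 5 lists. The region (chr6:78468458-78469738) covers the start of the gene, with its strongest summit 65 bp upstream. WT samples held 16, 16 and 31 fragments, cKO 1 and cKO 3 held 29 and 21, and cKO 2 had no call. The summits lay between 78468937 (WT 3) and 78469430 (cKO 3), so the fragments were counted at different positions. The percentiles were 50.9, 46.5 and 73.5 in WT and 65.9 and 59.4 in the 2 cKO lists with a call, which lay between the lowest and the highest WT value. A region without a call in 1 list has no value there and was not tested. The stretch before the start carries 2 matches to the ARID3 letters and 2 to CDX, one of them the run CTATAAA close to the start, whose letters also hold the TATA box.

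Reg3b, whose product acts on Gram-negative bacteria, had a weak promoter peak in cKO lists only. cKO 1 held 14 fragments and cKO 3 held 11, at percentiles 28.03 and 15.4, and cKO 2 and the 3 WT lists had no call. Over all protein-coding genes 6.76% had a promoter called in more cKO than WT lists and 6.74% in more WT than cKO lists, so that such differences were about as common in either direction. The region is chr6:78370569-78371090. Its summit lies 97 bp after the first of the annotated Reg3b starts and before the others. The part of it between untranslated exons holds a GATA and a STAT match, the latter being the letters that STAT3 dimers recognise.
Reg3b, chr6:78370707-78370860, plus strand: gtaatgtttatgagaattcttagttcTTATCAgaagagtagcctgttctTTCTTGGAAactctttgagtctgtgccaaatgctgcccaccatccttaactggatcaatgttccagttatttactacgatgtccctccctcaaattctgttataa

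Between Reg3b and Reg2 stand Reg3d and Reg3a, and neither had a promoter peak in any list. The region 1.15 kb downstream of Reg3a (chr6:78384796-78385256, intergenic) was called in all 3 cKO lists and in 0 WT lists, as were 0.464% of all regions, while 0 of the 12 Reg regions and 0.111% of all regions showed the opposite pattern. cKO 1, 2 and 3 held 22, 11 and 16 fragments there, at percentiles 58.0, 23.6 and 34.5. The peak of cKO 2 was 3 fragments above the lowest pileup its list called. WT 3 had a separate peak of 11 fragments starting 148 bp beyond this region, with a summit 1.59 kb from Reg3a, so that a WT list also had a call close by. At −log10 q of at least 5, and with lists of equal length, 0 Reg regions were called in every cKO and no WT list. WT 2 had a lone peak of 12 fragments 0.740 kb downstream of Reg3d, and WT 3 one of 12 fragments 1.58 kb downstream of Reg1. The summit sequence of the region called in the cKO lists is shown because, with overlapping peaks merged, it is the 1 site of the family with that pattern. It holds none of the 6 motifs and is 64.7% A+T.
Reg3a downstream, chr6:78384880-78385080, plus strand: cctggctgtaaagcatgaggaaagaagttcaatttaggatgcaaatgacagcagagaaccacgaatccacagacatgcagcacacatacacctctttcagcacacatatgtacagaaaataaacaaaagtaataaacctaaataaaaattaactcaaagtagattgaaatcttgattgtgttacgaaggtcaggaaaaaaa

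Reg2 had 0 peaks in all 6 lists within its 32.5 kb window, as had 21.9% of protein-coding loci. Of the 50-base stretches of its gene body 63.4% recur elsewhere in the genome, against 0 to 1.44% for the other 6 gene bodies. The 250 bases before the start printed above hold no recurring stretch, and those before the other annotated start, 78395623, recur in 85.1% of stretches. How reads with several equal alignments were treated is not given in the sources used here, and the part of recurrence in the missing calls was not tested.

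**Figure D2:**
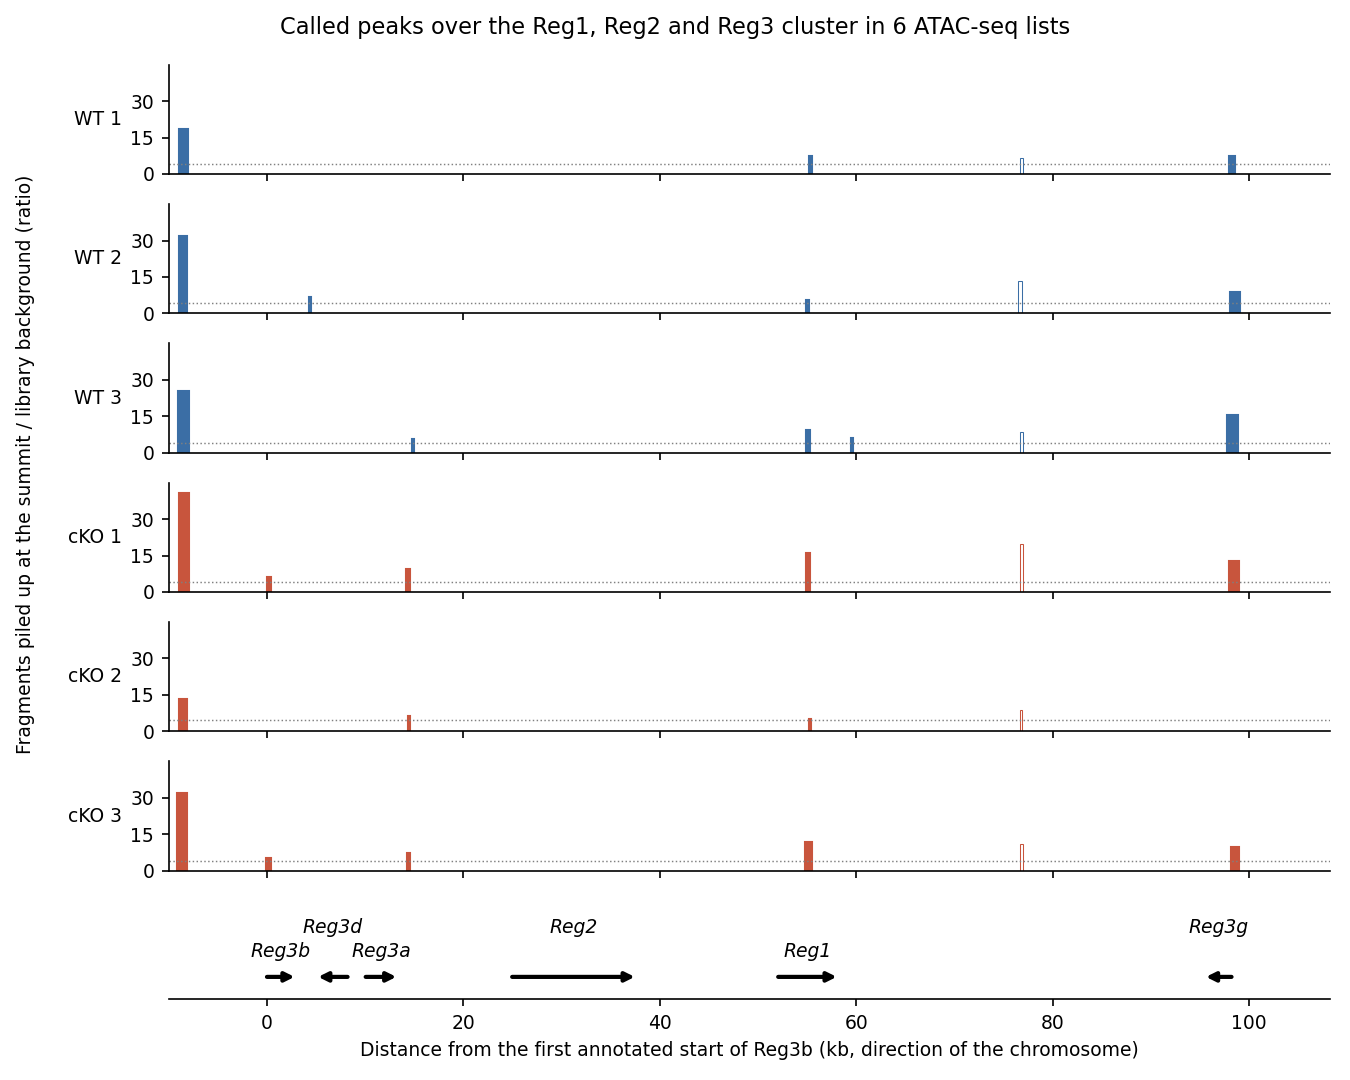
The array on chromosome 6 in 6 rows of samples. The x axis is the distance in kb from the first annotated Reg3b start, bars span each called peak and their height is the number of fragments at the summit divided by the library background. Filled bars lie within 10 kb of a member, the open bar between Reg1 and Reg3g lies farther away, the dotted line marks the lowest called pileup at library background and arrows show the genes and their strand. The site left of Reg3b is the tallest in every sample and no bar stands over Reg2.

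Reg4, alone on chromosome 3, had 4 regions and no promoter peak. WT 1 had no call in any of them. The 2 intronic regions lie 2.29 and 5.23 kb after the start. The first (chr3:98224209-98224672) was called in cKO 1 and cKO 3 with 19 and 20 fragments and in 0 WT lists. The second (chr3:98227013-98227495) held 24 and 19 fragments in cKO 1 and cKO 3 and 23 in WT 3, at percentiles 39.2, 30.8 and 49.4, so that the WT value was the highest percentile of the 3. The region over the last exon (chr3:98236035-98237107) was called in all cKO lists, with 16, 10 and 16 fragments, and in WT 2 with 11. The cKO summits lay inside the gene, at 98236653, 98236707 and 98236421. The WT 2 peak (98236773-98237105, summit 98237085) lay wholly past the end of the gene, 98236748, so the fragments were counted at different positions. The peaks of this region were among the lowest ranked of the family, at percentiles 17.3, 6.88 and 21.7 in cKO and 7.68 in WT 2.

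The region 5.98 kb downstream of Reg4 (chr3:98242227-98243294) was the most accessible of these 4. It was called in 5 lists, with 35 and 27 fragments in WT 2 and WT 3 and 59, 29 and 44 in cKO. Its percentiles were 61.6 and 36.4 in WT and 49.6, 59.3 and 50.7 in cKO, so that all cKO values lay between those of the 2 WT lists. A processed pseudogene, Gm42821, lies 5.88 kb away, as near as Reg4 itself. The local background was 1.96 to 3.79 times the library background here, the highest range in the family. The summit sequence, shown as the strongest Reg4 site, holds 1 GATA match.
Reg4 downstream, chr3:98242623-98242823, plus strand: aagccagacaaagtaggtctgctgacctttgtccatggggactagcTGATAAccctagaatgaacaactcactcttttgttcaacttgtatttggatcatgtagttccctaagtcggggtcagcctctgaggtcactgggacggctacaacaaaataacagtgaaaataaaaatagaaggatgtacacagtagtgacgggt

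**Figure D3:**
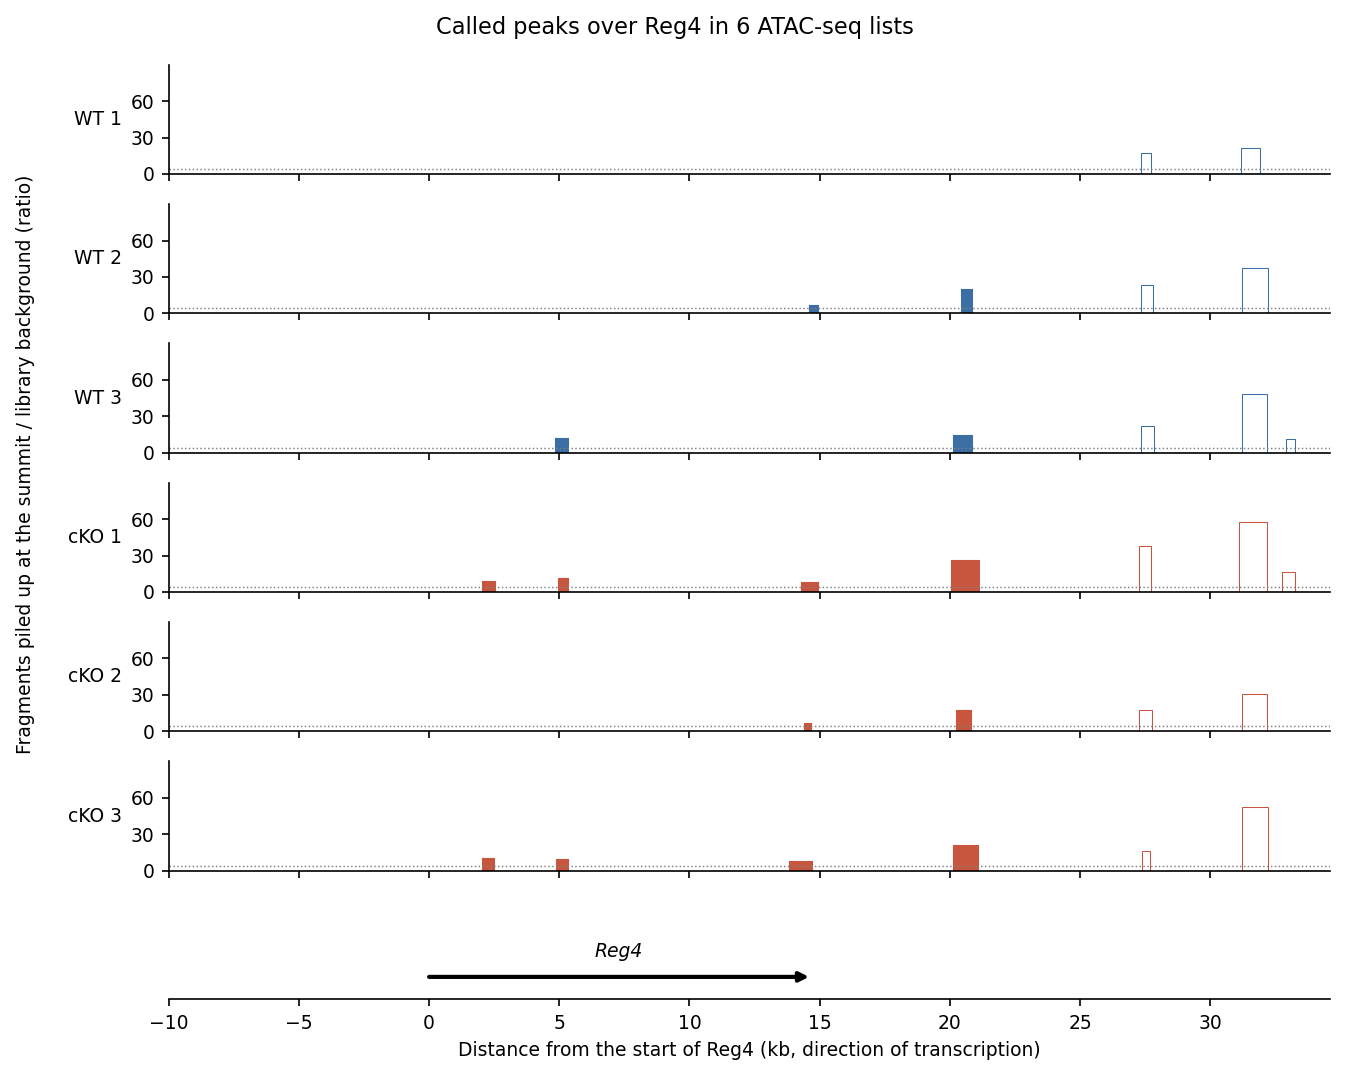
Reg4 in 6 rows of samples, with the distance from its start in kb on the x axis and fragments at the summit over library background on the y axis. Filled bars are peaks within 10 kb of the gene and open bars lie beyond. WT 1 has no filled bar, WT 2 and WT 3 have 2 each, and cKO 1, 2 and 3 have 4, 2 and 4, while the tall open bars beyond 25 kb from the start stand in every sample.

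**Figure D4:**
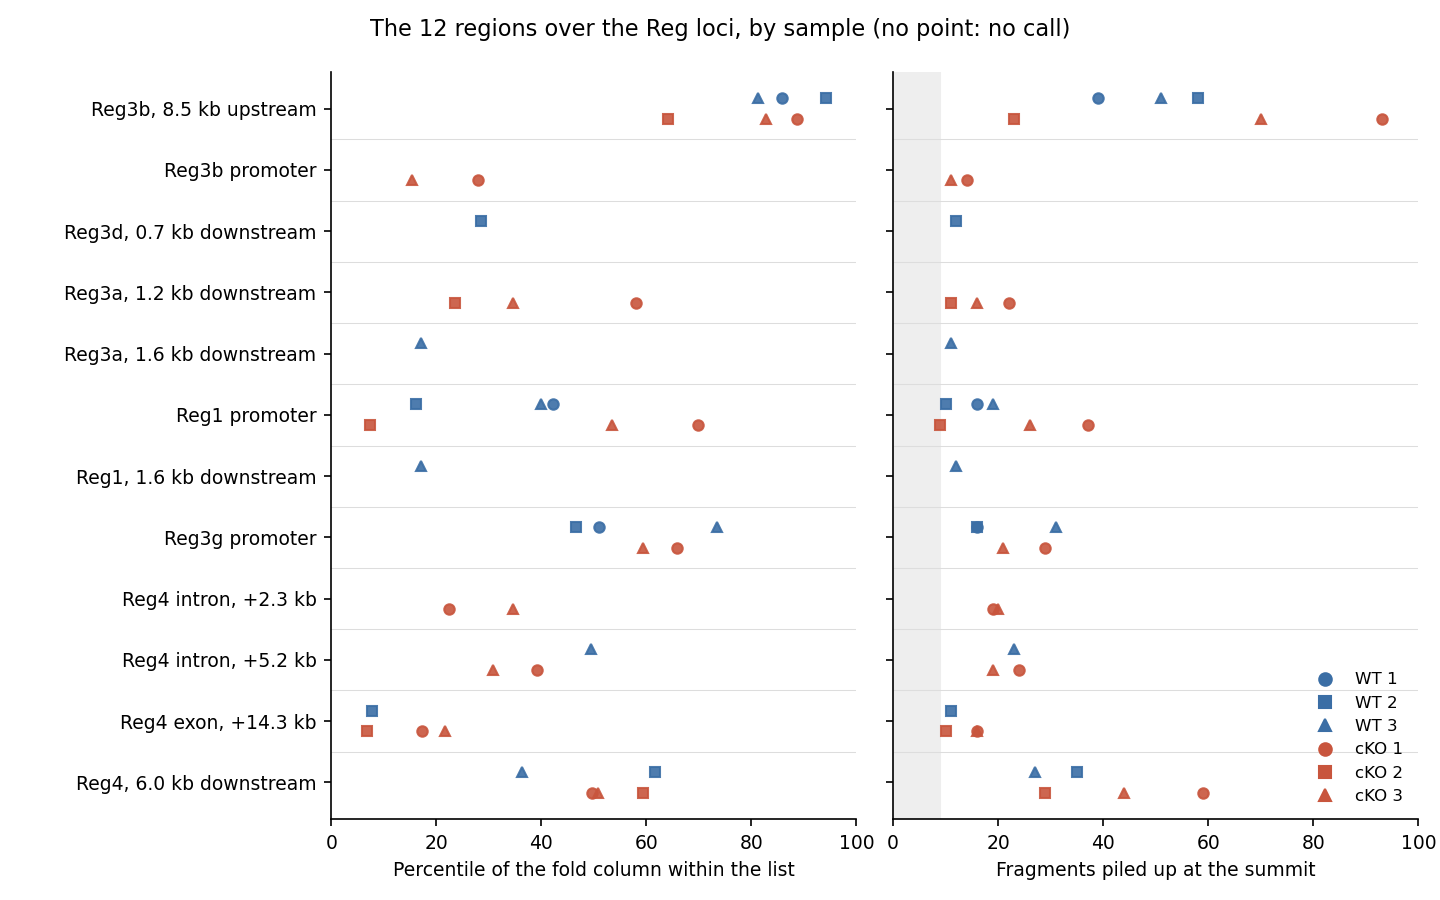
The 12 regions by sample. Each row is a region, named by its nearest member, with the within-list percentile of the fold column on the left and the fragments at the summit on the right (WT above, cKO below in each row, shapes for replicates, shading up to 9 fragments, the higher of the lowest called pileups). On the right, cKO 2 (red square) is the lowest cKO sample or is missing in all 9 regions with a cKO point, and the site upstream of Reg3b lies to the right of the others for every sample on the left and for every sample but cKO 2 on the right.

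The motifs were counted within 100 bp of the strongest summit of all regions and in the 250 bases before each start in RefSeq's GRCm38 promoters, which hold all 7 members. GATA letters, read by zinc-finger factors active in intestinal epithelium, occurred in 6 of the 12 Reg regions, where 20.4% of all regions hold them, and in the Reg1, Reg3b and Reg4 promoters, where 16.6% of all promoters do. CDX letters, named for the caudal-related intestinal factors, occurred in 3 of the 12 regions (11.3% of all) and in the Reg3g promoter (9.81% of all). ARID3 letters, which are A+T-rich like the DNA bound by Arid3a, occurred in 2 of the 12 (16.0% of all) and in the promoters of Reg2, Reg3a, Reg3g and Reg4 (20.9% of all). AP-1 letters occurred in 1 region and 1 promoter, both of Reg1 (8.05% of regions and 4.46% of promoters), STAT letters in 1 region and in the Reg3b and Reg3d promoters (5.62% and 7.02%), and HNF4 letters in none (2.51% and 0.715%). The Reg windows were rich in A+T, at 56.7% ± 6.34 (SD over 12 regions) where all regions averaged 47.3%, and at 57.9% ± 3.89 (SD over 7 promoters) where all promoters averaged 46.8%. GATA, CDX and ARID3 letters are themselves mostly A and T.

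The signals known to raise Reg3 genes, together with Extl3, the proposed Reg receptor, were followed over a list of 15 genes. The promoter was called in all 6 lists for 10 of the 15, in some lists for 3 and in none for Tlr4 and Tlr9, receptors for lipopolysaccharide and for unmethylated CpG DNA. The background over all protein-coding genes was 44.5% in all 6 lists and 38.3% in none. Those ranked highest were Stat3, the transcription factor downstream of interleukin-22 (mean percentile 98.2 over 6 lists), Irak4, a kinase of the MyD88 complex (97.8), and the receptor kinases Jak1 (94.8) and Tyk2 (93.96). Myd88, the adaptor of most Toll-like receptors, was called in 3 WT lists at percentiles 23.7, 4.13 and 15.8 and in cKO 3 at 2.54, and its region was present in all 6 lists (mean percentile 14.5 in WT and 6.34 in cKO, limma adjusted p = 0.771). Tlr5, the flagellin receptor, was called in WT 2 at 54.9 and in all cKO lists at 59.1, 35.1 and 48.5, with a region in all 6 lists (means 54.7 and 47.6). For Tlr2 the summit lay in the promoter in WT 2 alone, at 79.1, but its region too was present in all 6 lists, with a mean percentile of 78.5 in WT and 87.6 in cKO (limma difference 9.13, SE 4.27, adjusted p = 0.771). Of the 13 genes with a region called in all lists, wherever its summit fell, 0 passed the limma test in either direction (background 0%) and 0 had an unadjusted p under 0.05. Their median difference was −1.85 percentile points, where that of the 11996 promoter regions called in all lists was −1.26.

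A second list held 23 other antimicrobial and mucosal defence genes. Like the Reg promoters, of which 1 of 7 was called in every list and 4 in none, most were seldom called: 5 promoters in all 6 lists, 5 in some and 13 in none. Over all protein-coding genes 44.5% were called in all 6 lists and 38.3% in none. Pglyrp1, a peptidoglycan recognition protein, ranked highest (mean percentile 70.8), followed by Sprr2a2, called in WT 3 alone at 58.4 and a member of a family of close copies, for which recurrence was not computed. Lyz1, the Paneth cell lysozyme, was called in WT 2 and WT 3 at 60.6 and 61.4 and in cKO at 63.9, 46.7 and 52.5. Nos2, the inducible nitric oxide synthase, averaged 51.6. Itln1, the goblet and Paneth cell lectin intelectin, was called in WT at 66.4, 44.0 and 54.6 and in cKO 1 and cKO 2 at 47.6 and 24.03. Lypd8, which keeps flagellated bacteria off the epithelium, was called in WT 2 and WT 3 at 31.3 and 44.0 and in cKO at 26.5, 32.7 and 23.4, with a region in all 6 lists. Lcn2, which sequesters bacterial siderophores, was called in WT 2 and WT 3 alone, at 21.1 and 9.31. The 6 genes tested have 5 distinct regions, of which 0 passed the limma test in either direction and 1 had an unadjusted p under 0.05. It belongs to Duox2 and Duoxa2, an epithelial hydrogen peroxide source and its partner, which share it and are named after their values were seen (limma difference −19.6 percentile points, SE 7.88, adjusted p = 0.771). All 3 WT percentiles there (43.8, 50.2 and 54.2) lay above those of cKO. The median difference of the 5 regions was −6.49 percentile points, where that of promoter regions was −1.26. The regions of the 7 epithelial markers had a median difference of −9.28, with lower means in cKO for 7 of 7, 0 past the adjusted threshold and 1 at an unadjusted p under 0.05 (Krt19, −17.6, limma adjusted p = 0.771). The regions of the 6 crypt markers had a median difference of −2.23, with lower means in cKO for 5 of 6. Those of 4 mesenchymal and endothelial markers had a median of 1.62, with lower means in cKO for 2 of 4. The share of all promoter regions with a lower mean in cKO is not given here. The part of epithelial content in the values of the defence and Reg genes was not tested.

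The promoters outside the family whose percentiles over the 6 lists were nearest to those of the Reg1 promoter, among 11995 promoter regions, were Nmur1, Reep2 and Klhl29, at Euclidean distances of 20.98, 22.2 and 22.9 percentile points. The Nmur1 promoter ranked at 41.8, 15.4 and 49.8 in WT and 60.02, 23.01 and 54.5 in cKO.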

How the data were processed

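ATAC-seq of 6 samples was analysed, 3 WT and 3 cKO, each with 1 deposited peak list. The authors trimmed reads (Trim Galore), aligned them with BWA to GRCm38 (Ensembl release 95), filtered them and called narrow peaks per library with MACS2, with no control, in the nf-core/atacseq pipeline. The submitters' processing notes name MACS2, bedtools and GRCm38. The deposited columns used were fold (a ratio of pileup to local background), −log10 p, −log10 q and the score, which equals −log10 q times 10 cut to a whole number in 99.9% of peaks. Peaks on unplaced and other sequences (61 to 92 per list) were left out.

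From these lists were computed the peaks per locus, regions merged from peaks that overlap by at least 1 base, the percentile of the fold within each list, and the pileup, found as the whole number that gives both fold and p (whole for 100% of 3000 peaks tried per list). Regions called in all 6 lists were compared with limma 3.58.1 (R 4.3.3, mean trend, Benjamini-Hochberg over all of them, threshold 0.05), and single values with exact two-sided permutation tests. The total over the family got no test. The labels do not tie each sample to an animal of its own, so p-values measure only the spread between these samples, which may be technical. The limma fit was also run on simulated data with independent normal noise in each region. The outcome of that run is not given here, and deviations of a whole sample were not simulated. The design row of the limma fit can be read as with or without the mean trend, so the fit without it was run too. The 7 members, the gene lists and the motifs were chosen with earlier results of these data known. Named were all members and their regions, the 3 promoters nearest to the Reg promoter called most often and, of each gene list, genes called in unequal numbers of WT and cKO lists plus up to 4 of the highest mean percentile. All peaks lay inside the chromosome lengths of the GRCm38.p6 reference for 21 of 21 chromosomes. Alternatives were a stricter threshold, lists of equal length, other windows, merging and scales, a replicate block, each sample left out and autosomes only.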

Additional observations from a re-analysis of the deposited data

How the results depend on the processing

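The difference in peaks over the Reg loci stayed within 1 SD of 2.33 and on the cKO side in all 14 alternatives (1.00 to 3.67, and 1.17 to 3.67 with 1 sample left out). Among these the replicate block and autosomes only could not change it. The block keeps the mean difference, and no member lies on a sex chromosome. The 12 regions became 7 with lists of equal length and 23 at 25 kb. Those called in every list, 2, became 1 at −log10 q of at least 5, with lists of equal length and at 5 kb, 5 at 25 kb, and 2 to 3 with 1 sample left out. The single region called in every cKO and no WT list became 0 at the stricter threshold and with lists of equal length, 2 with fixed windows at summits, and 1 to 3 with 1 sample left out (3 without cKO 2, 2 without WT 2). The limma count stayed 0 in every alternative, with 795 (without cKO 3) to 5079 (without cKO 2) regions at an unadjusted p under 0.05, and 2248 without the mean trend, a setting added after seeing the data. The site upstream of Reg3b had a difference of −13.6 to −1.29 percentile points with 1 sample left out, and the sign turned to 3.43 for fragments over library background, a scale added after seeing the data. The Reg1 promoter went from −2.32 (without cKO 1) to 28.9 (without cKO 2) and could not be fitted at the stricter threshold or with lists of equal length, where not all lists called it. Adjusted p lay between 0.652 and 1.00 for the first and 0.320 and 1.00 for the second. Loci with more and with fewer peaks in every cKO list numbered 146 and 65. They were 152 and 160 with lists of equal length, 129 and 27 at the stricter threshold, and 193 to 941 and 101 to 445 with 1 sample left out. The cause of these changes was not tested.

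Same-numbered WT and cKO samples deviated together with correlations of −0.298, −0.03 and 0.134, so the numbers were not taken as pairs. With the replicate block the differences per number were 6, −1 and 2 peaks (mean 2.33), limma called 0 regions (1348 at an unadjusted p under 0.05), and the Reg3b site and the Reg1 promoter had adjusted p of 0.868 and 0.872. The depth behind these values is a median of 20 fragments per Reg peak, and intervals from them would cover counting error only.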

Other observations

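Between 10 and 25 kb from the members stood 11 further regions, 8 of them beside Reg4, and 3 of the 11 were called in all 6 lists. One lies between Reg1 and Reg3g, 18.8 kb from the Reg1 end (chr6:78447155-78447642), in the widest gap of the array. It held 14, 24 and 17 fragments in WT and 45, 15 and 24 in cKO, at percentiles 39.0, 71.1 and 48.4 against 88.2, 49.1 and 59.3 (limma difference 12.7 percentile points, SE 12.1, adjusted p = 0.796). cKO 1 was again the highest sample, and the other cKO values lay among those of WT.

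The other 2 lie beyond the end of Reg4. At 12.9 kb (chr3:98249440-98249999) the summit held 36, 42 and 44 fragments in WT and 86, 30 and 35 in cKO, and the limma difference was −17.8 percentile points (SE 8.73, adjusted p = 0.771). At 16.9 kb (chr3:98253267-98254390) it held 45, 68 and 97 fragments in WT and 131, 54 and 115 in cKO, more in every sample than any Reg4 region within 10 kb, with a difference of −3.03 percentile points (SE 7.08, adjusted p = 0.915). For fragments over library background the differences (cKO minus WT) had the other sign. They were 2.95 at 12.9 kb and 11.4 at 16.9 kb (exact permutation p = 0.9 and 0.4). WT 1, which had no call within 10 kb of Reg4, was called at both.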
